A study of Mus musculus with 2 samples.

Results

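The cells described here are mouse embryonic stem cells that carried transcript of the MERVL reporter gene GFP but very little RNA of the 2C genes, and they are called GFP-transcript cells below. They were chosen by a rule within the library labelled MERVL GFP positive. A cell had to have at least 10000 UMIs (counts of single RNA molecules) and at least 2 UMIs of GFP. Less than 0.01% of its UMIs could come from a set of 28 2C genes (Zscan4a to Zscan4f, Sp110, Zfp352, Tmem92, AF067061 and the Usp17l, Tdpoz and Tcstv families), and less than 0.03% from the endoderm genes Gata6, Sox17, Pdgfra and Dab2. The rule took 490 cells of the 4403 in that library with at least 10000 UMIs, a share of 11.1% (95% exact binomial interval 10.2% to 12.1%). The library held 4603 cells and the series 8435. GFP and the genes of the rule chose these cells, so their values are a description and support nothing.

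The study used 1 mouse embryonic stem cell line with GFP under the MERVL promoter and a nuclear far-red H2B-mIFP label, with the stated aim of tracing the fate of cells that enter the 2C-like state. All cells of both libraries carry both transgenes. The second library is labelled MERVL GFP negative, and the labels give no treatment, clone or passage. How cells were sorted into libraries is not stated, and each library is its own batch in the labels, so that batch cannot be told apart from group. With 1 library a group there is no replicate, no test was run, and the 95% intervals below reflect counting error alone. The main comparison is therefore within the positive library, between GFP-transcript cells and cells that met the same limits on 2C and endoderm genes but had 0 GFP UMIs, called 0-GFP cells. Cells were paired one to one on total UMIs, which gave 458 pairs with median totals of 34149.5 and 32548 UMIs.

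MERVL is an endogenous retrovirus that is transcribed in the mouse embryo when its own genome first becomes active. In stem cell cultures a small and changing fraction of cells enters a similar state, in which MERVL, the Zscan4 cluster and many genes with a MERVL promoter are transcribed and pluripotency proteins are reduced. A reporter under the MERVL promoter marks that state, and its transcript and protein can differ in time from the transcripts of the state itself.

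Most of the chosen cells held few GFP UMIs. The lowest cell had 2 GFP UMIs, the median 4 and the highest 51, or 35.6, 127 and 1243 CPM, where CPM are UMIs scaled to the total of the cell or group of cells. Of the 490 cells, 118 (24.1%) had exactly 2, 230 (46.9%) had at least 5 and 74 (15.1%) had at least 10. Most cells thus lay near the lower limit, with a long tail upward. Summed over cells there were 3086 GFP UMIs or 174 CPM (168 to 180), against 458 CPM (449 to 467) in the 918 strong 2C cells, which were defined by at least 0.1% of UMIs from the 2C genes of the rule and the same endoderm limit. The 74 cells with 10 or more GFP UMIs reached 433 CPM (410 to 457), or 94.5% of the level in strong 2C cells. Intermediate cells, between the 2C limits of the chosen and the strong cells, were not selected on GFP. They also had a median of 4 GFP UMIs, or 116 CPM, and a sum of 197 CPM (194 to 201).

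GFP transcript was rare outside the positive library. Among cells within the same limits on 2C and endoderm genes, a GFP UMI was found in 61.5% of the 1237 cells of the positive library (58.7% to 64.2%) and in 1.31% of the 3589 of the negative library (0.964% to 1.74%). Depth differed between the libraries: the median total was 32031.5, 32681 and 34773 UMIs in positive-library cells with 0, 1 and at least 2 GFP UMIs, and 39062.5 in negative-library cells with 0. After every cell was thinned to 10000 UMIs the shares were 38.0% (35.3% to 40.8%) and 0.446% (0.255% to 0.723%). The whole rule was met by 7 negative-library cells, or 0.195% of the 3589 (0.0785% to 0.401%). In the positive library the rule separated 490 cells from 271 with exactly 1 GFP UMI and 476 with none. The deposited matrices hold called cells only, so RNA free in the suspension of the positive library was not measured and its part in a GFP UMI of a single cell was not tested.

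The cells just inside and just outside each limit are given here as a description of the rule. The 118 cells with exactly 2 GFP UMIs had 59.4 CPM of GFP and the 271 with exactly 1 had 29.7 CPM, values that the limit itself sets. Just inside the 2C limit, 134 cells with a share from 0.008% to 0.01% had 193 CPM of GFP, and 99 cells just outside, from 0.01% to 0.012%, had 157 CPM. Near the endoderm limit 6 cells inside had 191 CPM of GFP and 3 outside had 137 CPM. The cells were cut by limits on a score and were not clustered, so they are a range of values and not a cell type.

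**Figure D1:**
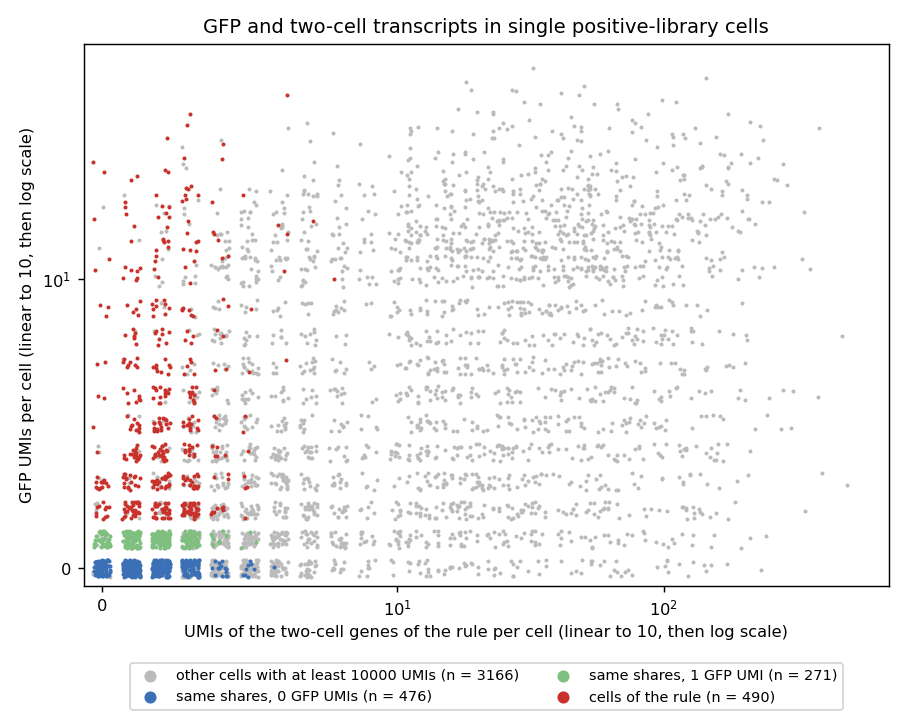
GFP UMIs (vertical axis) against UMIs of the 2C genes of the rule (horizontal axis) in each of the 4403 positive-library cells with at least 10000 UMIs; both axes are linear to 10 and logarithmic beyond, and points are jittered. The 490 chosen cells (red) hold at most 51 GFP UMIs and run into the other cells without a gap.

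UMIs of the 2C genes of the rule were few, as the rule required, and are given as a description. Only 38 of 490 (7.76%, 5.55% to 10.5%) had no UMI of the 2C genes of the rule, and the median cell had 2. Of the 476 0-GFP cells, 75 (15.8%, 12.6% to 19.3%) had none. The median 2C share was 0.00602% in GFP-transcript and 0.00485% in 0-GFP cells. Pairing was on total UMIs and not on this share. In the negative library 98.1% of 3542 cells with 0 GFP UMIs had none. Summed, these genes stood at 58.4 CPM (54.9 to 62.1) in GFP-transcript cells, 49.2 (45.8 to 52.9) in 0-GFP cells, 0.506 in negative-library cells and 3372 CPM in strong 2C cells. The limits on these genes bounded the levels, from above in all but the strong 2C cells, and the part of free RNA in the few UMIs per cell was not tested. By the rule the cells are ones of low 2C share, not of none. Zscan4d, of the telomere-linked Zscan4 cluster, was at 7.61 CPM in GFP-transcript cells, 6.75 in 0-GFP cells and 545 in strong 2C cells. The nuclear body gene Sp110 was at 5.58, 5.79 and 315 CPM.

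Other checks of identity put the cells among pluripotent stem cells. All of the 6 pluripotency markers used for the check (Pou5f1, Sox2, Nanog, Zfp42, Esrrb and Tfcp2l1) were present, with a summed level of 3037 CPM and a median cell of 2974 CPM. The sum was 2826 CPM in 0-GFP cells and 1134 CPM in strong 2C cells. The trophoblast markers Cdx2, Elf5, Gata3, Krt7, Hand1 and Plac1 summed to 5.75 CPM against 15 in 0-GFP cells, and 85.5% of GFP-transcript cells had none of them. The fibroblast markers summed to 11 against 9.0 CPM, most of it Thy1 at 8.17 against 5.21 CPM. Col1a1, Col1a2 and Col3a1 were at 1.86, 0.96 and 0.06 against 2.57, 1.09 and 0.06 CPM. Dcn, Lum and Postn were at 0 in GFP-transcript cells, and Dcn and Postn also in 0-GFP cells. The 9 primitive endoderm markers, of which 4 belong to the rule, summed to 217 against 247 CPM, with Sparc alone at 139 against 165 CPM. Gata6, Sox17, Pdgfra and Gata4 were higher in GFP-transcript cells, at 7.55, 3.66, 2.37 and 1.13 against 7.14, 2.31, 1.35 and 0.84 CPM. Sox7, Col4a1 and Lama1 were lower, as was Dab2 at 7.16 against 8.87 CPM. Of these, Gata6, Sox17, Pdgfra and Dab2 are genes of the rule.

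Depth and RNA content differed little from the cells of comparison. The median GFP-transcript cell had 34773 UMIs, 5911 genes, 2.34% mitochondrial and 23.1% ribosomal protein UMIs. The median 0-GFP cell, before pairing, had 32031.5 UMIs, 5811 genes, 2.5% and 23.2%. Strong 2C cells were shallower, with 21757 UMIs, 4770.5 genes and 3.07% mitochondrial UMIs. Cell cycle genes were also near: the median share of UMIs from S phase genes was 0.499% against 0.481%, and from G2/M genes 0.864% against 0.827%, while strong 2C cells had 1.05% from G2/M genes. The libraries shared 3 barcodes, carried by none of the 490 cells and by 1 paired 0-GFP cell.

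The first question put to genes outside the rule was whether the reporter transcript came with 2C transcripts that the rule had not used. A list of 160 further 2C genes was taken, of which 42 had at least 50 UMIs over the paired cells. Of these 42, 39 were higher and 3 lower in GFP-transcript cells, where 5196 of all 12647 genes with that many UMIs were higher, with a median log2 ratio of 0.29 (0.18 to 0.37) against -0.04 for all of these genes. All ratios between cell groups use CPM + 1 unless a ratio of sums is named. The 3 lower genes were Pramel13 (-0.28), Zfp264 (-0.26) and Cphx1 (-0.13). The summed level was 1163 CPM in GFP-transcript cells and 903 CPM in paired 0-GFP cells, a ratio of 1.29 (1.26 to 1.32). The filter on low values can favour genes that were high in one of the groups, and these counts describe the 42 genes and not the 160.

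The 2C genes that are most specific to the state were far below their full level. Of the 160, 42 were at least 4-fold higher in strong 2C cells than in negative-library cells, and their sum was 897 CPM (883 to 911) in GFP-transcript cells. That is 3.58% of the 25074 CPM in strong 2C cells, where the 0-GFP cells had 668 CPM (655 to 681) or 2.67% and the negative library 31.2 CPM or 0.124%. GFP in the same cells stood at 38.0% of its level in strong 2C cells. Counted against the reporter, GFP-transcript cells held 5.16 UMIs of these genes for each GFP UMI, intermediate cells (0.01% to 0.1% of UMIs from the 2C genes of the rule, 1740 cells) held 12.6 and strong 2C cells 54.7. Both sides of this ratio were set by the rule in the chosen cells, since their 2C share was limited from above and their GFP from below, while the other cells were not selected on GFP. With the number of GFP UMIs the ratio ran from 23.7 in cells with 1 to 9.69, 4.95 and 2.86 in cells with 2 to 4, 5 to 9 and 10 or more, and nothing is read from it.

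Single genes differed widely in this share. Of the 33 state-specific genes with at least 50 UMIs, the median gene was at 3.71% of its strong level in GFP-transcript cells, from 1.53% (Eif1ad11) to 54.8% (Pramel6), at 2.49% in 0-GFP cells and at 0.019% in the negative library. All 33 had a log2 ratio above 0 against paired 0-GFP cells. Gm21761 was at 106 CPM (101 to 112) in GFP-transcript cells, 95.2 (90.4 to 100) in paired 0-GFP cells and 5624 CPM in strong 2C cells. Eif4a3l1, a copy of the exon junction helicase gene Eif4a3, was at 52.0 against 42.7 CPM and at 1773 CPM in strong 2C cells. For most of these genes the level in 0-GFP cells was already close to that in GFP-transcript cells. The part of free RNA in the low level that both groups shared was not tested.

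**Figure D2:**
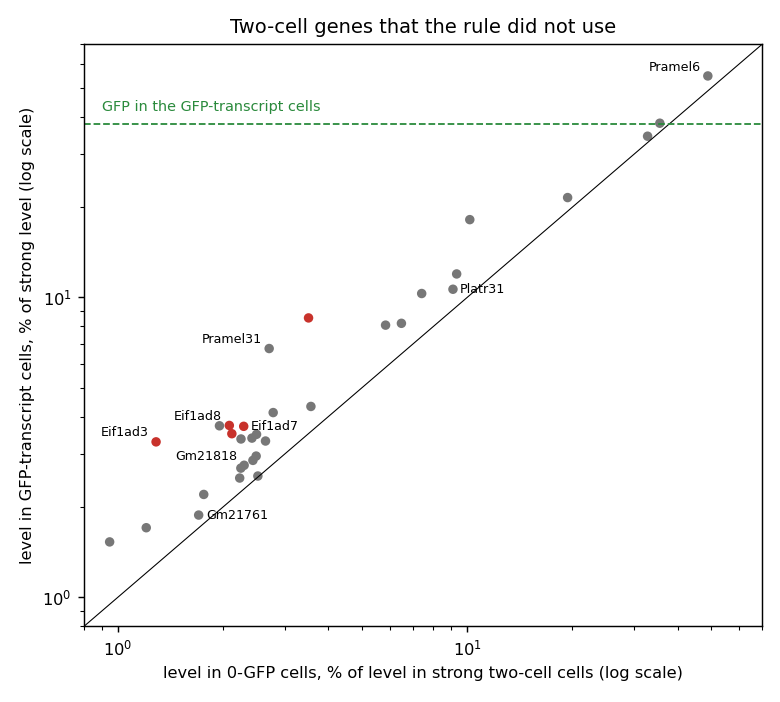
Level of each of the 33 state-specific 2C genes outside the rule as a percent of its level in strong 2C cells, in 0-GFP cells (horizontal axis) and in GFP-transcript cells (vertical axis), both logarithmic, with the line of equality and a dashed line at the 38.0% of GFP, which the rule selected. All 33 genes lie above the line, and Eif1ad3 and Eif1ad8 lie farther above it than Gm21761.

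Some 2C genes stood apart by the size of the difference. A size rule took genes with at least 10 CPM in one of the groups, 50 UMIs over both and a ratio of at least 1.5. Of 7767 genes tested, 36 (0.463%) were higher and 62 (0.798%) lower in GFP-transcript cells by this rule. Of the 42 listed 2C genes, 21 were tested and 5 were higher, among them Eif1ad3, Eif1ad7, Eif1ad8 and Eif1ad15. None was lower. TMM and median-of-ratios scaling, which move the median of all genes from -0.04 to about 0, gave 46 higher and 46 lower genes, or 50% higher in place of 36.7%. All of the 36 and 46 of the 62 were among the calls of these scalings. Of the 36 higher genes 24 (66.7%) were also at least 4-fold higher in strong 2C cells than in negative-library cells, where 2.47% of all tested genes were. Of the 62 lower genes 3 (4.84%) were, and 13 (21%) were 4-fold lower there, against 0.927% of all genes. None of the cells of that second comparison belongs to the first.

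**Figure D3:**
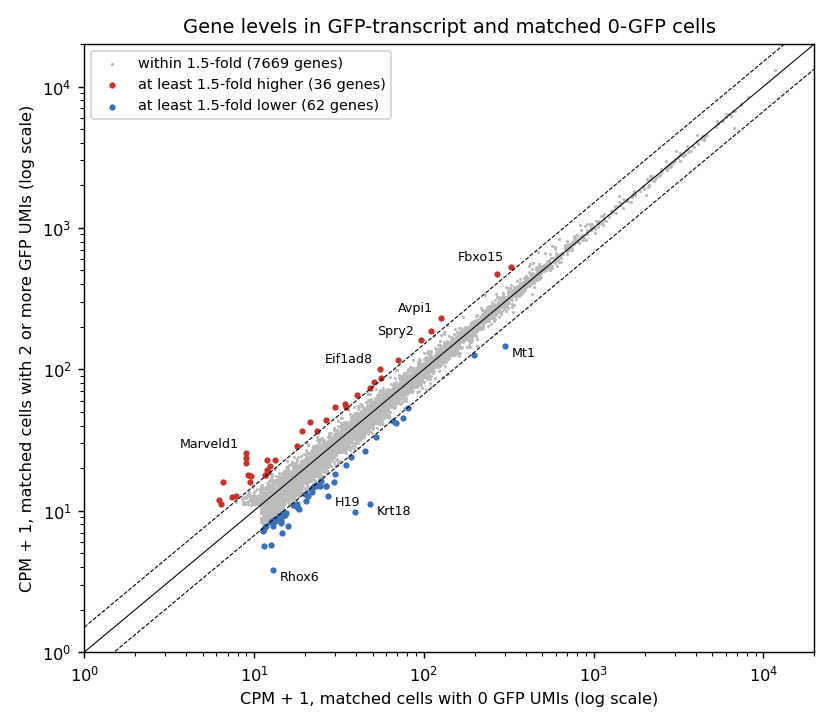
Summed level of each tested gene outside the rule in paired GFP-transcript cells (vertical axis) against paired 0-GFP cells (horizontal axis), both as CPM + 1 on log scales, with the line of equality and dashed lines at 1.5-fold. The 36 higher genes (red) include Marveld1 and Avpi1, and the 62 lower genes (blue) include Krt18 and Mt1.

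The Eif1ad genes are copies of translation initiation factor 1A that are transcribed in the 2C state. Eif1ad8 had 1588 UMIs against 834, or 100 CPM (95.4 to 105) against 54.4 (50.8 to 58.2), a ratio of 1.84 (1.69 to 2.01). Its median cell had 2 UMIs against 1. Eif1ad3 was at 22.7 against 7.96 CPM (ratio 2.85, 2.31 to 3.53), Eif1ad7 at 56.2 against 33.5 CPM (1.67) and Eif1ad15 at 72.4 against 47.2 CPM (1.53). Eif1ad6, at 28.0 against 19.8 CPM, did not pass the ratio, and Eif1ad itself was at 89.7 against 80.3 CPM. The genes form a family of copies, and how reads that fit several copies were counted is not given in the sources used here, so how the difference divides among them is uncertain. Gm2027, annotated as a processed pseudogene, was at 15 against 5.55 CPM (ratio 2.7, 2.1 to 3.5). Pramel31 (9.29 against 3.72 CPM, ratio 2.5), Duxbl1 (6.32 against 3.46) and Ubtfl1 (3.35 against 1.70) were below the 10 CPM needed for the size rule.

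Of the genes outside all lists, Marveld1, which encodes a membrane protein with a MARVEL domain, had the largest ratio. Its 387 against 122 UMIs gave 24.4 CPM (22.1 to 27.0) against 7.96 (6.61 to 9.51), a ratio of 3.07 (2.5 to 3.80), and 16.6% (13.3% to 20.3%) against 6.99% of thinned cells (4.83% to 9.72%) had a UMI. Avpi1, named for its induction by vasopressin, had 3651 against 1907 UMIs, or 231 CPM (223 to 238) against 124 (119 to 130), a ratio of 1.85 (1.75 to 1.96). Its median cell had 5 UMIs against 3. The genes are neighbours on chromosome 19 (GRCm38): Avpi1 at 42123273 to 42129059 on the minus strand and Marveld1 at 42147400 to 42151703 on the plus strand, with 18340 bases between them. In strong 2C cells Marveld1 was at 51.9 and Avpi1 at 352 CPM, so GFP-transcript cells held 46.4% and 66.2% of the strong level. The 0-GFP cells, before pairing, already held 15.7% and 35.7% of it.

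Further genes higher in GFP-transcript cells were also high in strong 2C cells. Lgals4 (galectin-4) was at 41.7 against 20.4 CPM, Ccser1 at 17 against 8.22, Tbc1d12 at 16.6 against 8.61 and the transcript 5430402O13Rik at 10.2 against 5.42. Igfbp3, a binding protein of insulin-like growth factors, was at 21.9 (19.7 to 24.4) against 11 (9.37 to 12.8), and the small GTPase gene Arl4d at 35.8 (32.9 to 38.8) against 18.2 (16.1 to 20.5). Single cells weighed on some of these values: 1 cell gave 116 of the 660 Lgals4 UMIs. Xist, the RNA that coats the inactive X chromosome, was called at 10.9 against 5.22 CPM. In strong 2C cells Xist was at 6.33 CPM, not high as the genes above were. Of its 172 UMIs 96 came from 1 cell, and the 10 highest cells held 70.3%. Its direction was the opposite under 6 of the alternatives.

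Another group of higher genes was lower in strong 2C cells than in GFP-transcript cells. Spry4 and Spry2 encode Sprouty proteins, feedback inhibitors of FGF and ERK signalling. Spry4 was at 53 CPM (49.5 to 56.7) against 28.9 (26.3 to 31.7), a ratio of 1.83 (1.63 to 2.06), with 20.1 CPM in strong 2C cells. Spry2 was at 160 (154 to 167) against 95.8 CPM (91.0 to 101), a ratio of 1.67, with 81.8 CPM in strong 2C cells. Epop, a partner of Polycomb repressive complex 2, had 7520 against 4132 UMIs, or 475 (464 to 486) against 270 CPM (261 to 278), a ratio of 1.76, and the median cell had 12.5 against 6 UMIs. In strong 2C cells Epop was at 170 CPM, and in negative-library cells Spry4, Spry2 and Epop were at 52.4, 83.3 and 127 CPM. Intermediate cells had 39.6, 129 and 360 CPM of these genes, so they too were above both the 0-GFP and the strong 2C cells. All 36 higher genes were above their 0-GFP level in intermediate cells, as 3540 of the 7767 tested genes were. Other genes past the ratio, named after their values were seen, were the growth factor gene Fgf17 (19.8 against 11.4 CPM), and the retinoic acid receptor Rarg (81.0 against 49.7), with 4.25 and 39.6 CPM in strong 2C cells. The Wnt acyltransferase Porcn (16.9, 14.96 to 19.08, against 10.6) was at 16.2 CPM in strong 2C cells, within its interval in GFP-transcript cells.

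Within the GFP-transcript cells many of these levels followed the number of GFP UMIs. The 490 cells were divided into 260 with 2 to 4, 156 with 5 to 9 and 74 with 10 or more. Marveld1 was at 15.1, 23.8 and 50.9 CPM in these classes, against 8.17 in cells with 0 and 11 with 1 GFP UMI. Avpi1 was at 192, 237 and 347 CPM, against 126 and 137. For both genes the class with the most GFP was the highest, and it was near the level of strong 2C cells. Of the 36 higher genes 25 (69.4%) were in ascending order over the 3 classes, as 18.9% of all tested genes were, and 18 (50%) over all 5 classes from 0 upward, as 3.70% were. The higher genes were called partly from the same cells, so this is a description. Depth was also higher with more GFP, with medians of 33794, 35198 and 38867.5 UMIs.

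The 2C genes outside the rule were also higher in the classes with more GFP. The 42 state-specific 2C genes summed to 776 (758 to 795), 904 (879 to 929) and 1239 CPM (1200.05 to 1279) in the 3 classes, or 3.10%, 3.61% and 4.94% of their sum in strong 2C cells. GFP was at 80.2, 183 and 433 CPM, which the division into classes fixed. Gm21761 was at 97.1, 106 and 129 CPM and Eif4a3l1 at 45.3, 49.8 and 68.2 CPM. Cells with just 1 GFP UMI had 703 CPM of the 42 genes, close to the 668 CPM of cells with none. Spry4 was in ascending order at 44.9, 53.8 and 79.3 CPM and so was Spry2 at 146, 163 and 197 CPM, while Epop was highest in the middle class at 528 CPM.

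**Figure D4:**
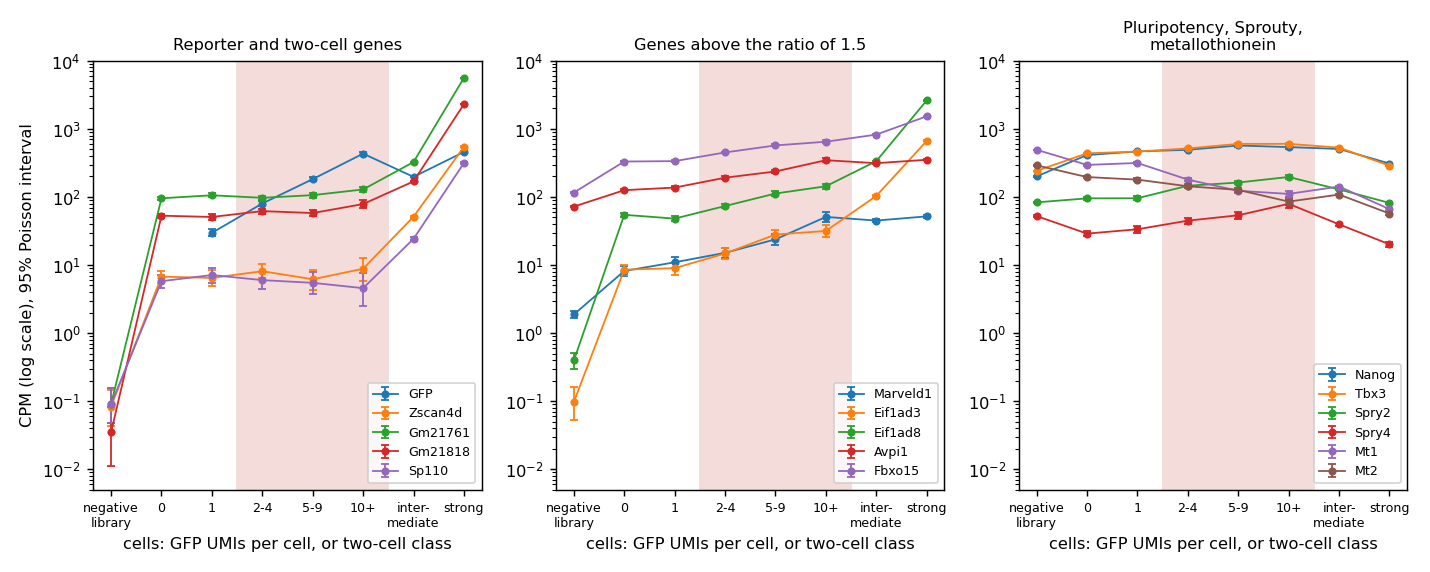
Summed level (vertical axis, logarithmic CPM) of genes over classes of cells (horizontal axis): negative-library cells, positive-library cells with 0, 1, 2 to 4, 5 to 9 and 10 or more GFP UMIs within the same limits, then intermediate and strong 2C cells; bars are Poisson intervals and lines only guide the eye, and the shaded band marks the classes of GFP-transcript cells in each of 3 panels. GFP, which chose the classes, is absent at 0 UMIs; Marveld1 stands at 15.1 CPM in the lowest and 50.9 in the highest of the shaded classes, and Mt1 at 180 and 111 CPM.

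Of the genes lower in GFP-transcript cells, Mt1 and Mt2 had the most UMIs. Metallothioneins bind zinc and copper and are induced by metals and stress hormones. Mt1 had 2281 UMIs in GFP-transcript cells, with a median cell of 2.5 and a highest of 72, and 4573 in paired 0-GFP cells, with a median of 4 and a highest of 575. This is 144 CPM (138 to 150) against 298 (290 to 307), a ratio of 0.483 (0.459 to 0.508). Mt2 was at 125 (119 to 130) against 197 CPM (190 to 204), a ratio of 0.634 (0.599 to 0.671), and Mt3, too low for the size rule, at 2.65 against 5.35 CPM. After thinning, 55.7% of GFP-transcript cells (51.0% to 60.3%) and 68.3% of 0-GFP cells (63.9% to 72.6%) had an Mt1 UMI. The level of Mt1 was lower with more GFP, at 180, 123 and 111 CPM in the 3 classes, and was 296 CPM with 0 GFP UMIs, 316 with 1, 493 in the negative library and 66.3 in strong 2C cells. The 0-GFP sum leaned partly on few cells, whose 10 highest held 31.2% of the UMIs. The other hypoxia-linked genes of the same list did not pass the ratio, among them Ldha (929 against 916 CPM), Pgk1 (501 against 521), and Slc2a1 (232 against 170), a glucose transporter.

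Mt1 and Mt2 lie next to each other on chromosome 8 with 5513 bases between them, and their promoters are shown because the pair differed together. The sequences are RefSeq's for GRCm38.p6, plus strand, from 250 bases before to 50 after each gene's start in RefSeq, which is not the start in the GENCODE annotation. Capitals mark matches to the core of the metal response element, searched as TGCACNC and TGCGCNC on both strands.
Mt1, chr8:94178839-94179138: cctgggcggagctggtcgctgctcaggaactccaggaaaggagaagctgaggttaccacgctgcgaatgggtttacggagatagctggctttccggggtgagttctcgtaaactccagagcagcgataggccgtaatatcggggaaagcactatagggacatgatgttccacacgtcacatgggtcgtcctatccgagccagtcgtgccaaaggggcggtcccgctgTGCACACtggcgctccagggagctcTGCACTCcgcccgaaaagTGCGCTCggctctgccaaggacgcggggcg
Mt2, chr8:94172368-94172667: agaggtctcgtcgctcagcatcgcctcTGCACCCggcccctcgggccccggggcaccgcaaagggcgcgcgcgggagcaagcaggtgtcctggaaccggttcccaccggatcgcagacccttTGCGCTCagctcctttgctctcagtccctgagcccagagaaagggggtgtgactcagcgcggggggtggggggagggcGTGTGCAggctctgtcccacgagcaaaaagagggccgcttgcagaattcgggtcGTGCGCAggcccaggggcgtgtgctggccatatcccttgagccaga
The Mt1 window holds 3 matches and the Mt2 window 4. Of 32851 promoters of the same length, 25.7% hold at least 1 match and 1.97% at least 3. A match describes the letters and is no evidence of binding.

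The largest ratios downward rested on few 0-GFP cells. Krt18 and Krt8, the keratin pair of simple epithelia, were at 10.1 (8.60 to 11.8) against 46.9 CPM (43.6 to 50.5) and 8.84 (7.44 to 10.4) against 38.5 CPM (35.5 to 41.7). Of the 458 paired 0-GFP cells, 10 (2.18%, 1.05% to 3.98%) had 10 or more keratin UMIs and held 81.4% of them, against 2 GFP-transcript cells (0.437%). Without such cells, a comparison added once the values were known, the log2 ratio of Krt18 was -0.19 in place of -2.11 and that of Krt8 moved from -2.0 to 0.04. Rhox6, a homeobox gene of germ cells and placenta, moved from -1.77 to 0.13, the imprinted RNA H19 from -1.08 to 0.04 and the carbonyl reductase Cbr3 from -0.83 to -0.39. For Krt18, Krt8, Rhox6 and H19 most of the difference thus rested on a few keratin-rich cells. The Mt1 ratio was -1.05 with them and -0.82 without, and the size rule then gave 35 higher and 47 lower genes.

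Other lower genes were spread over more cells. The connexin gene Gjb5 was at 6.82 (5.6 to 8.24) against 14.9 CPM (13.1 to 17). Epb41l1, of the membrane skeleton, was at 4.74 against 11.5 CPM, Cpne5, a calcium-dependent membrane binding protein, at 4.61 against 10.4, and the metal transporter gene Slc11a1 at 6.0 against 13.6. The Hedgehog receptor Ptch1 was at 9.54 (8.08 to 11.2) against 17.2 CPM (15.1 to 19.4). Dusp27 (14.0 against 25.6 CPM), Pla1a (9.35 against 17.3) and Hip1 (7.14 against 13.4) were among the 15 largest too. In the class with 10 or more GFP UMIs, Ptch1 was at 5.55 CPM, against 10.5 in the class with 2 to 4. Of the 62 lower genes 28 (45.2%) were in descending order over the 3 classes, as 22.9% of all tested genes were. The lower genes too were called partly from the same cells, so this is a description.

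Pluripotency genes lay on both sides of their level in 0-GFP cells, with more of them above it. The median log2 ratio of the 30 list members was 0.08 (-0.01 to 0.20), beside -0.04 for all genes, with 20 above 0 and 10 below. Fbxo15, a target gene of Oct4 and Sox2, was the one member past the ratio, at 531 (520 to 542) against 327 CPM (318 to 336), or 1.62-fold (1.57 to 1.68). It is also high in strong 2C cells, at 1533 CPM. Prdm14 (14.1 against 10.2 CPM), Tbx3 (563 against 436) and Nanog (533, 522 to 544, against 414, 404 to 424) were higher by less than 1.5-fold. The core factors Pou5f1 (336 against 333 CPM) and Sox2 (661 against 649) were nearly equal, as was Zfp42 (1326 against 1260). L1td1 (254 against 334), Lin28a (27.5 against 35.5) and Gdf3 (35.7 against 45.3) were the lowest, also by less than 1.5-fold, and L1td1 was in descending order over the 3 classes of GFP UMIs at 269, 248 and 241 CPM. In strong 2C cells Sox2 was at 187 CPM and Zfp42 at 376 CPM, far below the level of GFP-transcript cells, and in the class with 10 or more GFP UMIs they were at 692 and 1248 CPM.

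Genes known to switch the 2C state on were examined as a list. None of the 5 measured activators passed the ratio. Dppa2, which with Dppa4 acts upstream of the state, was at 173 (166 to 179) against 125 CPM (120 to 131), a ratio of 1.38 (1.30 to 1.46). Dppa4 (73.9 against 71.7 CPM), Dppa3 (33.9 against 31.5) and Smad7 (175 against 166) were near equality. Nelfa, a maternal factor that can induce the state, was at 118 against 100 CPM, with 1703 CPM in strong 2C cells. The transcription factor gene Duxf3 was at 0.78, 0.53 and 0.98 CPM in the 3 classes of GFP-transcript cells and at 7.85 CPM in strong 2C cells, too low to compare. Over these classes Dppa2 was at 158, 167 and 246 CPM and Nelfa at 107, 121 and 142 CPM, both in ascending order. The 31 repressors had a median of -0.01 with none past the ratio, from Lin28a (-0.35) to Trim28 (0.43), the co-repressor of endogenous retroviruses, which was at 841 against 625 CPM.

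Lists of differentiation genes had medians below 0. The primed list had a median of -0.36 (-0.71 to 0.06), and of 10 tested members 4 were lower (Krt18, Krt8, Lefty1 and Otx2) and 1, Sox3, was higher, beside 0.798% lower and 0.463% higher of all genes. The keratin pair lost its call without the few keratin-rich cells, at -0.19 and 0.04, and the median of the list was then -0.08. Lefty1, a Nodal antagonist, was at 14.0 against 23.6 CPM and Otx2, a homeobox gene of formative and primed cells, at 8.65 against 13.8, while Sox3 was at 11.8 against 6.79 and Nodal at 38.8 against 30.4 CPM. The trophoblast list had a median of -0.36 (-0.72 to -0.16), or -0.21 without keratin-rich cells, with 1 of 3 tested members lower, Tfap2c at 20.2 (18.1 to 22.6) against 33.9 CPM (31.1 to 37.0). The primitive endoderm genes outside the rule had a median of -0.15 (-0.23 to -0.02), and the collagen chaperone gene Serpinh1 was the 1 of 17 past the ratio, at 14.1 against 22.3 CPM. Both groups of cells had been limited in endoderm genes by the rule. The growth arrest gene Cdkn1c was at 32.1 against 51.1 CPM, 1 of 13 tested in its list.

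The remaining lists lay within 0.2 of 0. The signalling list of immediate early genes had a median of -0.03, with Spry4 and Spry2 higher and no member lower by the ratio, although Klf6 (19.96 against 29.9 CPM), Egr1 (9.60 against 13.8) and Junb (12.4 against 17.5) were on the other side of 0 from Dusp4 (18.8 against 12.3). Nucleolar genes had 20 of 26 members above 0 and a median of 0.04, led by Nolc1 (298 against 253 CPM). S phase genes were at -0.01, G2/M at -0.06, p53 targets at -0.06, the integrated stress response at -0.02, chaperones at 0.04, glycolysis at 0.01, nuclear oxidative phosphorylation at 0.01, ribosomal proteins at -0.01 and mitochondrially encoded genes at -0.05. None of these lists apart from the immediate early genes had a member past the ratio. DNA methylation genes were at -0.18 with none past the ratio, and germline genes at -0.13 with Tfap2c as the 1 lower member.

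**Figure D5:**
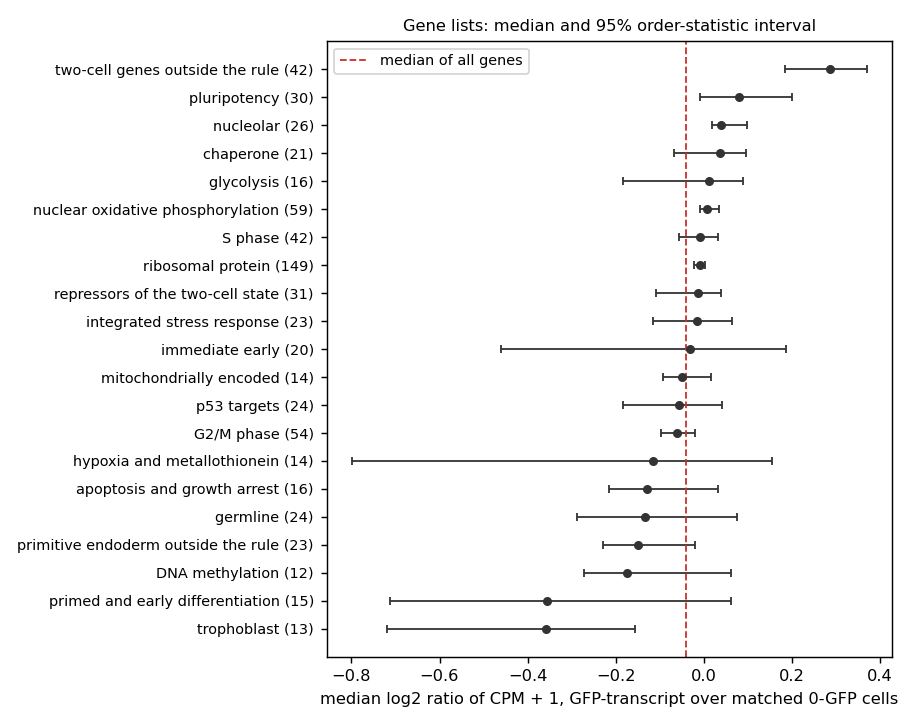
Median log2 ratio of GFP-transcript cells to paired 0-GFP cells over the members of each gene list with at least 50 UMIs (points, horizontal axis) with order-statistic intervals (bars), for lists with at least 6 such genes; the dashed line is the median of all genes, -0.04. The 2C genes outside the rule lie highest at 0.29 and the primed and trophoblast lists lowest at -0.36.

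Against the other library the cells differed in far more genes. The 490 GFP-transcript cells were paired with 490 negative-library cells with 0 GFP UMIs within the same limits. Of 7714 genes tested, 695 (9.01%) were at least 1.5-fold higher and 285 (3.69%) lower in GFP-transcript cells, and the median of all genes was 0.12. Library and reporter state cannot be told apart in these counts. The 2C genes outside the rule had a median of 2.51, Gm21761 a log2 ratio of 6.51 and Eif1ad8 of 6.15. Nanog (526 against 200 CPM) and Tbx3 were higher, at log2 ratios of 1.39 and 1.14, and Fbxo15 was at 2.16. Mt1 (150 against 495 CPM) was lower, at a log2 ratio of -1.72, as were Mt3 at -2.28 and Mt2 at -1.19. Spry4, higher than in 0-GFP cells, was close to the negative-library level (-0.05), and the ribosomal protein list was at -0.26. The GFP-transcript cells are shared by both comparisons.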

How the data were processed

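For 1 positive and 1 negative library the deposited matrices hold counts, whole numbers for 55415 features in each cell, with GFP as 1 feature. Per the submitters' processing notes FastQC 0.11.2, Trim Galore 0.6.4, STAR 2.7.6a and the build mm10 were used; how cells were called, how molecules were counted and which annotation was used are not given in the sources used here. Counts were read as UMIs given barcodes of 16 bases and a single-cell library source in the labels, although the labels' extraction text describes a total RNA kit. Coordinates are from GENCODE annotation of GRCm38, matched by gene ID for 52133 of 55414 genes.

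Counts were summed over cells and scaled to CPM over all genes. Pairing minimised the difference in log10 UMIs, with pairs over 0.05 apart left out. The size rule (10 CPM in a group, 50 UMIs over both, 1.5-fold in CPM + 1 in either direction) describes these cells and tests nothing. Sums have exact Poisson intervals, shares exact binomial (Clopper-Pearson) intervals, ratios exact conditional intervals and list medians order-statistic intervals, all at 95%, for counting error only. No doublet caller was run, so doublets remain; an alternative left out cells above 2 times the median UMIs.

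Named genes are GFP and the genes of the rule, members of the 2C, activator, pluripotency, endoderm, hypoxia and metallothionein lists with at least 50 UMIs, the 15 highest and 15 lowest ratios past the rule whose sign was the same under every scaling, and the 3 highest and 3 lowest of other lists; further names were picked from the results. Some genes that these rules name are not reported here. The cells, the lists and the rules were chosen with earlier results of these data known. The size rule was also run on simulated data for the comparison of GFP-transcript with paired cells. It recovered 100% of 200 genes changed 2-fold among 55415, with 1 false call. The simulated counts had counting error alone, without spread between cells, and the changed genes lay above the 10 CPM limit. Recovery was thus nearly set in advance, and it gives no error rate for the calls made here. Alternatives changed the limits of the rule, the pairing, the scaling (edgeR's TMM, median of ratios), the thresholds and the cells of comparison. Software was edgeR 4.0.16 in R 4.3.3, and pandas 2.3.3, scipy 1.17.1 and numpy 2.4.6 in Python 3.11.15.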

Additional observations from a re-analysis of the deposited data

How the results depend on the processing

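No paired analysis of samples was possible because the comparison lies within 1 library. The pairs are cells matched on depth. With 0 UMIs of the 2C genes the fibroblast list had no value. Alternatives without keratin-rich cells, with a shorter 2C list or with only its state-specific genes were chosen after the data were seen. Depth limits single cells: most held few UMIs of GFP or of any 2C gene, so membership near the limits depends on counting error.

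Changing the limits of the rule moved the share of cells by construction. Why the numbers of higher and lower genes moved was not tested. The share of cells was 17.3% with at least 1 GFP UMI, 5.22% with at least 5, 4.97% with at least 2 after thinning, 4.04% with a 2C share under 0.005%, 0.863% with 0 UMIs of the 2C genes of the rule, 20.8% under 0.02% and 12.9% with no endoderm limit. GFP was at 125, 271 and 271 CPM with the first 3 of these and at 194 CPM with 0 2C UMIs. Higher and lower genes numbered 19 and 23 with at least 1 GFP UMI, 118 and 194 with at least 5, 105 and 154 with at least 2 after thinning, 58 and 152 under 0.005%, 213 and 198 with 0 2C UMIs (38 cells), 55 and 65 under 0.02%, and 56 and 53 with no endoderm limit.

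With cells thinned to 10000 UMIs there were 89 and 177, with CPM outside ribosomal protein and mitochondrial genes 48 and 98, and with cells holding 1 GFP UMI in place of GFP-transcript cells 7 and 16. The counts were 4 and 9 at a ratio of 2, 186 and 428 at a looser ratio, 118 and 243 at 1 CPM, 14 and 7 at 50 CPM, 196 and 377 with no level filter, and 26 and 24 with a pseudocount of 5. Against the negative library they were 695 and 285.

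The ratio of summed 2C genes outside the rule stayed above 1 under every alternative run. It was 1.19 with at least 1 GFP UMI, 1.45 with at least 5, 1.35 after thinned selection, 1.23 under 0.005%, 1.23 with 0 2C UMIs, 1.36 under 0.02%, 1.254 with endoderm share under 0.01%, 1.33 with no endoderm limit, 1.24 with the nearest cell with replacement, 1.33 with TMM and with median of ratios, 1.36 for state-specific genes, 1.18 without the 5 genes past the ratio, 4.74 against the negative library and 1.04 for cells with 1 GFP UMI. The pluripotency median stayed between 0.05 and 0.19.

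Signs turned as follows, for named genes and for lists whose interval did not hold 0, and the cause was not tested. With 1 GFP UMI in place of GFP-transcript cells, log2 ratios were -0.17 for Eif1ad8, -0.029 for Lgals4, -0.054 for 5430402O13Rik, -0.12 for Xist, 0.21 for Slc11a1, 0.066 for Mt1 and -0.029 for the nucleolar median. With 0 2C UMIs they were -0.38 for Lgals4, -0.32 for Xist, -0.51 for Spry4, 0.15 for Krt8, 0.47 for Rhox6, 0.69 for Cbr3 and 0.045 for the primitive endoderm median. Xist was also at -0.063 with at least 1 GFP UMI, -0.54 with thinned selection, -1.12 under 0.005% and -0.10 under 0.02%. Against the negative library Spry4 was at -0.053, Krt18 at 0.28, Cbr3 at 0.27, and the primitive endoderm, trophoblast and G2/M medians at 0.26, 0.31 and 0.29; medians with an interval that held 0 or with none also turned there, to 0.11 for primed, 0.42 for germline, 0.30 for p53 target, 0.39 for mitochondrially encoded, 0.25 for fibroblast, 0.07 for repressor, -0.06 for glycolysis and -0.16 for nuclear oxidative phosphorylation genes. The G2/M median was 0.052 with thinned selection and 0.0038 with replacement. Without keratin-rich cells Krt8, Rhox6 and H19 were at 0.038, 0.13 and 0.043. Of 588 values of named genes under alternatives, 416 stayed within their interval, 150 moved and 22 changed sign. Of 461 list medians 56 lay on the other side of 0, and in 7 of these the list's own interval had not held 0.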
